A study of Homo sapiens with 6 samples.

Results

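The splicing of 8 enzyme genes of amino acid metabolism was followed through the splicing data of lung adenocarcinoma cells that overexpressed SAM68, namely GLUD1, GOT1, GOT2, PHGDH, PSAT1, SHMT1, SHMT2 and ASNS. Their rows were all rows that carried 1 of these 8 gene symbols, in the tables of skipped exons (SE), alternative 3′ splice sites (A3SS), alternative 5′ splice sites (A5SS), mutually exclusive exons (MXE) and retained introns (RI), with a mean of at least 10 junction reads over the 6 libraries. This gave 58 events of the 66394 in the whole series that reached the minimum. No glutaminase gene is among the 8, so the set is described by its members: enzymes of glutamate and aspartate exchange, of serine and glycine synthesis, and of asparagine synthesis.

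The cells were NCI-H1975, an established human lung adenocarcinoma line, transfected with a SAM68 expression plasmid or with the same vector without insert (control), at 2 µg per well for 48 h in both groups. Total RNA was sequenced in 3 libraries per group. Expression was transient and from a plasmid in 1 cell line, and nothing in the labels gives the share of cells that took up the plasmid. SAM68, encoded by KHDRBS1, is an RNA-binding protein that takes part in alternative splicing, and the study asked which splicing events change when it is overexpressed.

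Glutamate dehydrogenase (GLUD1) and the aspartate aminotransferases of the cytosol (GOT1) and the mitochondrion (GOT2) move nitrogen between glutamate, aspartate and 2-oxo acids. PHGDH and PSAT1 catalyse the first steps from a glycolytic intermediate to serine, with glutamate as the nitrogen donor of PSAT1. SHMT1 in the cytosol and SHMT2 in the mitochondrion split serine into glycine and a one-carbon unit, and ASNS makes asparagine from aspartate with glutamine as nitrogen donor. PHGDH, PSAT1, SHMT2 and ASNS are known targets of ATF4, the transcription factor of the amino acid response.

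The column names of the tables number the groups without naming them, and their assignment rests on a plot in the paper that names the groups and prints inclusion levels of 1 event. KHDRBS1 itself was measured first. In RPM, the junction reads of the most-read event scaled to 1000000 such reads per library, KHDRBS1 had 311.15, 328.41 and 315.98 in control and 1230.4, 1259.7 and 1276 with SAM68. This was a log2 fold change of 1.98 (SE 0.047, limma adjusted p = 1.16e-21). The groups stood far apart, and reads from the plasmid and from the cells' own gene cannot be told apart. The library totals ranged from 16951876 to 19737729 junction reads in the SE table. Of the 16 marker genes looked up for the cell type, 5 had values, and the epithelial keratin KRT18 had 470.95 to 530.12 RPM. Of the other keratins, KRT8 had 519.56, 252.99 and 236.36 RPM in control and 248.2, 234.69 and 229.48 with SAM68, so that 1 control library stood apart, and KRT7 had 3.02 to 4.48 RPM in control and 1.26 to 2.2 with SAM68, without overlap. The part of these differences in the results below was not tested. The alveolar protease NAPSA was near 0 (0 to 0.917 RPM) and the leukocyte-associated CD68, also made by many other cells, had 91.969 to 103.82. The other 11 markers had no row and were not analysed here.

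None of the 58 enzyme events was called, that is, passed an adjusted p under 0.05 together with a change of percent spliced in (PSI, the share of transcripts that hold the exon or the longer form) of at least 10 percentage points. The smallest adjusted p was 0.521 (quasi-binomial test, Benjamini-Hochberg within each type). Over all events 0.0919% were called, and 0.258% passed the adjusted p alone, again with none of the 58. At an unadjusted p under 0.05 there were 5 of the 58 (8.62%), beside 5.95% of all events. Another test, limma on the logit of PSI, called 0 of the 58 as well, but it called only 3 events of the whole series (0.00452%), and 2 of the 58 (3.45%) had an unadjusted p under 0.05, beside 4.59% of all events.

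The median absolute change of PSI was 0.355 points in the 8 genes and 1.24 points over all events, and the largest among the 58 was 7.0 points, while 7.16% of all events moved by 10 points or more. These figures were not tested against each other, and the events differed in depth, with a median of 517.4 reads per library in the 8 genes and 111.3 over all events. The 95% interval of the change stayed within 10 points of 0 in 53 events and within 5 points in 46. Mean PSI was at least 90% in 38 events (65.5%, against 58.4% of all events), at most 5% in 10, and between 5% and 95% in 10 (17.2%, against 32.3% of all events).

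**Figure D1:**
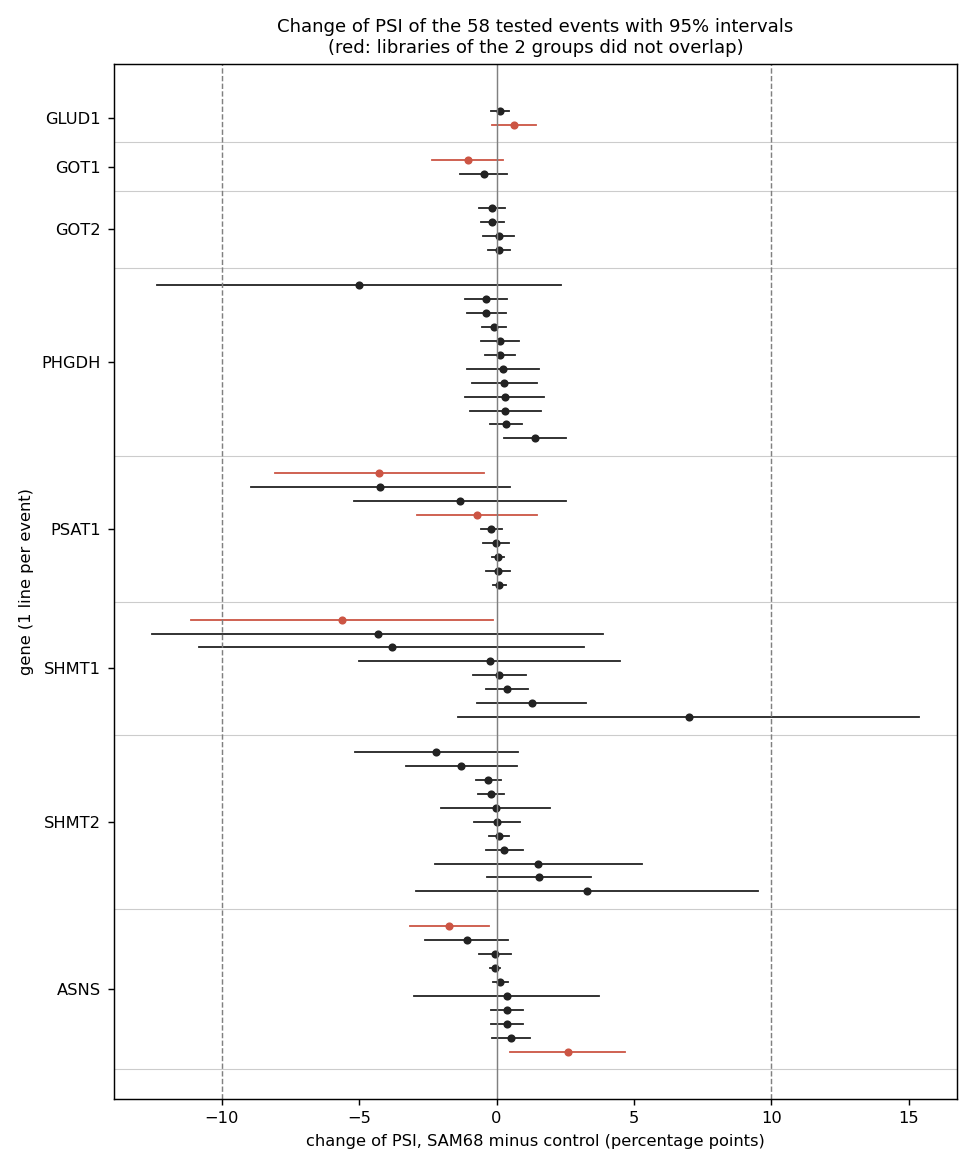
Change of PSI (SAM68 minus control, percentage points) of the 58 tested events, 1 line per event and grouped by gene, with the 95% interval as a bar; dashed lines mark 10 points in each direction, and red marks events whose 3 control and 3 SAM68 libraries did not overlap. Every point lies between the dashed lines, the widest bars belong to SHMT1 and PHGDH, and 7 events are red.

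The libraries of the groups did not overlap in 7 of the 58 events (12.1%), 2 with higher and 5 with lower PSI under SAM68. Over all events 6.1% did not overlap, 3.08% higher and 3.02% lower. With 3 libraries against 3 the exact permutation test, two-sided, cannot give a p below 0.1. In the paragraphs that follow, PSI values are listed for the 3 control libraries and then for the 3 SAM68 libraries, and exon numbers are those of the canonical transcript in GENCODE 44.

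The clearest alternative splicing of the 8 genes was in SHMT1 (chr17:18327860-18363563, minus strand, GRCh38). Exon 8 (chr17:18335559-18335675) is coding and 117 nt long, so that leaving it out removes 39 codons and keeps the frame. Exon 9 (chr17:18333166-18333288) is coding and 123 nt long, or 41 codons. A 139-nt exon (chr17:18360414-18360552) is absent from the canonical transcript, is held by 1 of 10 annotated transcripts, and codes in none of them. The splice sites of these exons, read from hg38, are shown because these exons, with 1 of ASNS, were the only skipped exons of the 8 genes with a mean PSI between 5% and 95%. Capitals mark the AG before the exon and the GT after it.
SHMT1 exon 8, 3′ splice site, chr17:18335673-18335695: tgatgtttttcttcctccAGgag
SHMT1 exon 8, 5′ splice site, chr17:18335553-18335561: ctgGTaaaa
SHMT1 exon 9, 3′ splice site, chr17:18333286-18333308: cattgtctcttcttgtccAGggg
SHMT1 exon 9, 5′ splice site, chr17:18333160-18333168: cagGTagag
SHMT1 139-nt exon, 3′ splice site, chr17:18360550-18360572: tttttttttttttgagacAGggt
SHMT1 139-nt exon, 5′ splice site, chr17:18360408-18360416: cggGTaatt

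PSI of SHMT1 exon 8 was 64.8%, 63.6% and 52.5% in control and 73.0%, 69.0% and 59.9% with SAM68. The control library at list position 3 was low and the groups overlapped. The means were 60.3% ± 6.77 and 67.3% ± 6.71 (SD, n = 3 each). The change of 7.0 points had a 95% interval of -1.39 to 15.4 (adjusted p = 0.699, quasi-binomial test), so a change of up to 15.4 points lay within the error. The interval was built with a dispersion (spread between libraries relative to counting error) of 2.3, shared by all SE events. This exon's own dispersion was larger, at 3.965. Leaving out 1 library gave 3.1 points (without the control library at list position 3) to 10.7 points (without the SAM68 library at list position 3), with 4.15 without the SAM68 library at list position 1. The skipping form rested on 202 of 773 reads in the control and 152 of 729 in the SAM68 libraries.

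The event of exon 9 joins it on one side to exon 7, as in transcripts without exon 8, and on the other to exon 10, so its skipping form lacks both exons. Its PSI was 81.1%, 90.2% and 82.8% in control and 77.0%, 81.6% and 82.5% with SAM68. The groups overlapped, and the change of -4.33 points had an interval from -12.5 to 3.88. It was -1.58 points without the control library at list position 2, and -2.63 without the SAM68 library at list position 1. As a plain share of reads it was -2.64. The junction that leaves out both exons is in none of the 10 annotated SHMT1 transcripts, yet had 54 reads in control and 67 in SAM68 libraries.

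The 139-nt exon was included at 15.9%, 16.4% and 19.7% in control and 18.9%, 16.7% and 15.7% with SAM68. The means of 17.3% ± 2.06 and 17.1% ± 1.63 (SD, n = 3 each) differed by -0.254 points, less than the spread in either group, with an interval of -5.0 to 4.49. The difference was above 0 without the control or the SAM68 library at list position 3.

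SHMT2 (chr12:57229573-57234935, plus strand) had a choice between 3 acceptor (3′ splice) sites at exon 6, a coding exon that ends at position 57232575. The canonical exon starts at the second site. The first lies 28 nt upstream, which is not a multiple of 3, and the last lies 30 nt downstream, which is. The letters of the sites are set beside each other because the counts below differ so strongly between them, and capitals mark the AG.
SHMT2 first site, chr12:57232405-57232427: ctgccctgcttccttctcAGggc
SHMT2 second site, chr12:57232433-57232455: ctgtttgtgtgtctgtccAGccc
SHMT2 last site, chr12:57232463-57232485: gcctcattgactacaaccAGctg

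Junction reads into the second site numbered 572, 492 and 510 in control and 461, 440 and 405 in SAM68 libraries. Into the first site there were 23, 13 and 14 reads in control and 16, 30 and 21 with SAM68. The last site had 0 reads of 1624 in the control libraries together, which allows a share of up to 0.185% (3 reads of the total), and 0, 4 and 0 reads in the SAM68 libraries.

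The first site took 3.87%, 2.57% and 2.67% of these reads in control and 3.35%, 6.33% and 4.93% with SAM68. The means were 3.04% ± 0.719 and 4.87% ± 1.49 (SD, n = 3 each), and the groups overlapped. The event that sets the first against the second site gave a change of PSI of 1.56 points with an interval from -0.339 to 3.45 (adjusted p = 0.805, quasi-binomial test). It was 0.822 points without the SAM68 library at list position 2 and 2.35 without the SAM68 library at list position 1. The 4 reads into the last site, all in 1 SAM68 library, entered 3 events: the other 2 A3SS events of this exon, and a retained intron event with a change of -2.19 points, which was -1.13 without division by length and 0 without that library. In that last event the boundary counted as intron lies inside the canonical exon, so its PSI of 100% in all control libraries does not measure retention. Intron retention proper before the canonical site was rare, at 0.186% ± 0.0804 in control and 0.277% ± 0.252 with SAM68 (SD, n = 3 each).

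Skipping of whole SHMT2 exons was rare. Exon 3 (chr12:57231481-57231560, 80 nt), whose skipping is annotated in 7 of 35 transcripts, was included at 96.8% ± 0.934 in control and 96.8% ± 0.376 with SAM68 (SD, n = 3 each), with 44 skipping reads of 2196 and 43 of 2146. It is described although it fell outside the rule for named events, and was chosen after its values were seen. Exon 7 (chr12:57232704-57232843), the most-read event of the gene, was included at 98.9% to 100% in all 6 libraries.

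ASNS (chr7:97851677-97872542, minus strand) held the event with the smallest unadjusted p of the 8 genes. An exon of 278 nt (chr7:97871719-97871996) near the start of the gene is absent from the canonical transcript, is present in 3 of 17 annotated transcripts and codes in none of them. Exon 9 (chr7:97855353-97855459, 107 nt) is coding, and its loss would shift the frame. Both are shown with their splice sites since they were the only ASNS exons whose libraries did not overlap between the groups, and capitals mark AG and GT.
ASNS 278-nt exon, 3′ splice site, chr7:97871994-97872016: tttactatgtggcgtcgaAGcct
ASNS 278-nt exon, 5′ splice site, chr7:97871713-97871721: gagGTctgt
ASNS exon 9, 3′ splice site, chr7:97855457-97855479: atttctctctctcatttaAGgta
ASNS exon 9, 5′ splice site, chr7:97855347-97855355: aagGTaacc

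The 278-nt exon was included at 6.92%, 6.05% and 6.31% in control and 8.17%, 10.9% and 8.01% with SAM68. All SAM68 libraries were above all control libraries. The change was 2.59 points with an interval of 0.485 to 4.69 (unadjusted p = 0.0167, adjusted p = 0.699, quasi-binomial test), which does not hold after correction. It was 1.66 points without the SAM68 library at list position 2, and 4.43 points as a plain share of reads without division by length. The rarer form rested on 215 of 1780 reads in control and 259 of 1574 with SAM68.

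ASNS exon 9 was included at 98.0%, 98.0% and 97.9% in control and 97.8%, 96.3% and 94.7% with SAM68. All SAM68 libraries lay below all control libraries, with an SD of 1.58 points against 0.0758 in control. Reads that skipped it numbered 15, 17 and 16 in control and 18, 26 and 43 with SAM68, so that 1 SAM68 library was close to the control libraries. The change was -1.71 points with an interval of -3.14 to -0.284 (adjusted p = 0.699, quasi-binomial test), -0.911 points without the SAM68 library at list position 3, and -0.973 as a plain share of reads. The skipping junction is in none of the 17 annotated ASNS transcripts.

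A second 3′ splice site in ASNS exon 3 (chr7:97868908-97869179) shortens it to 198 nt. The long form had 98.0%, 100% and 98.6% in control and 97.0%, 99.0% and 97.4% with SAM68. The groups overlapped, with a change of -1.09 points and an interval of -2.61 to 0.435. It ranged from -1.67 points without the SAM68 library at list position 2 to -0.526 without the control library at list position 2, and was -0.696 without the SAM68 library at list position 1 and -0.705 as a plain share of reads. The most-read event, exon 5 (chr7:97859213-97859398), was included at 99.6% to 100% in all libraries.

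PSAT1 (chr9:78297125-78330093, plus strand) has 2 annotated transcripts, which differ in exon 8 (chr9:78328051-78328188), a coding exon of 138 nt, or 46 codons. Its PSI was 96.4%, 96.3% and 95.8% in control and 95.4%, 95.7% and 95.3% with SAM68. All SAM68 libraries lay below all control libraries, but the change of -0.71 points had an interval of -2.89 to 1.47, wider than the difference. The interval rests on the dispersion shared by all SE events (2.3), while this exon's own was 0.0982. This exon too was chosen after its values were seen, as the one that tells the annotated isoforms apart. Its splice sites are given for that reason, with AG and GT in capitals.
PSAT1 exon 8, 3′ splice site, chr9:78328031-78328053: ataataaacatgtttttcAGttg
PSAT1 exon 8, 5′ splice site, chr9:78328186-78328194: tagGTgagt

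Every other PSAT1 exon with an SE event was included at 99.4% to 100% in each library. The 3 MXE events of PSAT1 pair exons 2 and 3, 5 and 6, and 6 and 7, all of which both annotated transcripts hold together. A transcript with both exons of a pair adds 1 junction to each of the counted forms, so such a PSI lies near 50% and does not measure a choice between the exons. For each MXE pair, PSI is given for the exon with the lower number, which lies nearer the start of the transcript. In the pair of exons 5 and 6 the value was 50.2%, 50.6% and 52.3% in control and 46.2%, 47.6% and 46.5% with SAM68.
The groups did not overlap, with a change of -4.26 points (interval -8.06 to -0.465, unadjusted p = 0.0301, adjusted p = 0.521, quasi-binomial test).

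In SHMT1 the canonical transcript likewise holds both exons of each MXE pair, although of 10 annotated transcripts 4 hold exon 4 and 6 hold exon 3. The pair of exons 3 and 4 gave 62.3%, 69.1% and 60.9% in control and 59.3%, 55.9% and 60.2% with SAM68. The groups did not overlap, and the change was -5.63 points with an interval of -11.1 to -0.138 (unadjusted p = 0.0471, adjusted p = 0.604, quasi-binomial test). Without the control library at list position 2 it was -3.14 points. The pair of exons 2 and 3 moved by -3.81 points (interval -10.8 to 3.2) with overlapping libraries, by -0.418 without that control library, by -7.75 without the control library at list position 3 and by -2.09 without the SAM68 library at list position 2. The other PSAT1 pairs changed by -4.22 points (exons 2 and 3) and -1.33 points (exons 6 and 7), and the ASNS pair of exons 5 and 6 by 0.369 points, all with intervals that included 0. The PSAT1 pair of exons 2 and 3 changed by -1.92 points without the control library at list position 3 and by -2.55 without the SAM68 library at list position 1. The pair of exons 6 and 7 changed by 0.0316 without the control library at list position 1, by -2.07 without the control library at list position 2 and by -0.414 without the SAM68 library at list position 3. The ASNS pair ran from -0.987 to 3.08 points when 1 library was left out. MXE events over the whole series had an unadjusted p under 0.05 in 8.09%, against 5.57% of SE events.

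PHGDH (chr1:119648411-119744218, plus strand) had 12 tested events, none with groups that did not overlap. A 125-nt exon (chr1:119729509-119729633) is absent from the canonical transcript, is annotated in 3 of 34 transcripts and codes in none. It is shown because it gave the only PHGDH event with an unadjusted p under 0.05, and AG and GT are in capitals.
PHGDH 125-nt exon, 3′ splice site, chr1:119729489-119729511: ccatgactccccttccccAGgct
PHGDH 125-nt exon, 5′ splice site, chr1:119729631-119729639: tagGTaagc

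The exon was included at 0.706%, 0% and 0.406% in control and 1.37%, 0.681% and 3.26% with SAM68. Inclusion reads numbered 4, 0 and 2 in control and 8, 3 and 12 with SAM68, so the groups overlapped and 1 SAM68 library held more than the rest of its group together. The change was 1.4 points with an interval of 0.261 to 2.54 (unadjusted p = 0.0182, adjusted p = 0.699, quasi-binomial test), 0.654 points without that SAM68 library and 2.66 as a plain share of reads, and the exact permutation test, two-sided, gave p = 0.2.

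At PHGDH exon 10 (chr1:119741767-119741897) an upstream 5′ splice site had 0 of 996 reads in control, which allows a share of up to 0.301% (3 reads of the total), and 3 reads in the SAM68 libraries, all in 1 of them. The same 3 reads made the largest nominal change of the gene, -5.0 points in a retained intron event with an interval of -12.4 to 2.36. It was -2.7 without division by length and 0 without that library. There too the boundary counted as intron lies inside the canonical exon. That library was at the same list position as the SAM68 library with the 4 reads at the last SHMT2 site. Exon 10 as a whole was included at 99.6% to 100% in all libraries.

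**Figure D2:**
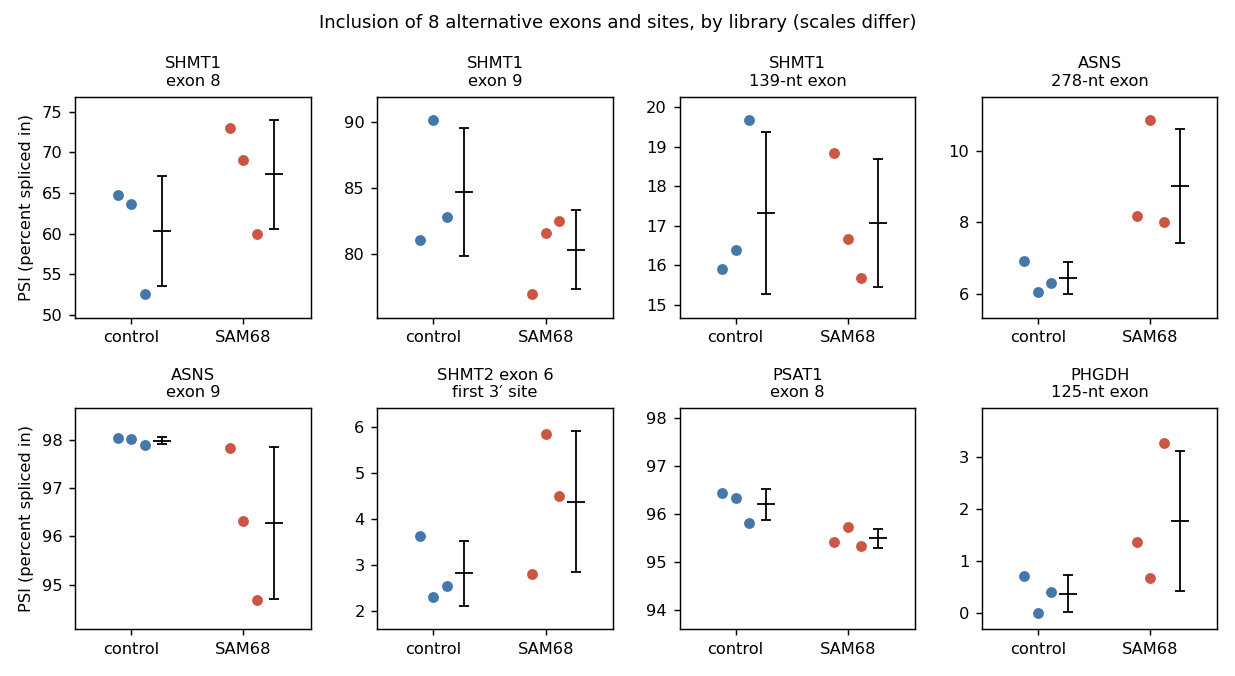
PSI in percent of 8 alternative exons and sites of SHMT1, ASNS, SHMT2, PSAT1 and PHGDH, with 1 point per library (3 control in blue, 3 SAM68 in red) and the mean ± SD as a black bar; the vertical scales differ between panels and do not start at 0. The groups are separate in the 278-nt exon and exon 9 of ASNS and in exon 8 of PSAT1 and overlap in the other 5 panels.

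In the glutamate and aspartate enzymes almost no alternative form was seen. GLUD1 (chr10:87050202-87094843, minus strand) had its exon 12 (chr10:87053342-87053404, 63 nt, 21 codons) included at 98.6%, 99.4% and 99.4% in control and 100%, 99.8% and 99.6% with SAM68. The groups did not overlap, on 7, 3 and 3 skipping reads against 0, 1 and 2, and the interval of the 0.635-point change ran from -0.172 to 1.44. Without the control library at list position 1 the change was 0.368 points. Its exon 8 (chr10:87060688-87060825) had 2 skipping reads of 3316 in control and 0 of 2914 with SAM68.

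GOT1 (chr10:99396870-99430624, minus strand) exon 6 (chr10:99403724-99403874, 151 nt, coding) had 0 skipping reads of 1131 in control, which allows up to 0.265%. With SAM68 it had 2, 3 and 1 skipping reads, a PSI of 99.2%, 98.2% and 99.5%. The groups did not overlap, and the change was -1.05 points (interval -2.35 to 0.251, adjusted p = 0.699, quasi-binomial test). It was -0.673 points without the SAM68 library at list position 2, and -0.528 as a plain share of reads without division by length. GOT1 exon 8 (chr10:99402580-99402722) had 0 skipping reads of 1461 in control and 0, 1 and 2 with SAM68.

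GOT2 (chr16:58707131-58734342, minus strand) was uniform, with exons 7 (chr16:58716663-58716813) and 9 (chr16:58709417-58709567) included at 99.5% to 100% in all libraries. A longer form of its exon 3 (chr16:58722119-58722278) had 2 reads of 1053 in control and 0 of 1110 with SAM68, which allows up to 0.27%.

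The limits given for counts of 0 cover counting error only. A pooled-count comparison, which ignores the spread between libraries, gave 6 of the 58 events (10.3%) an adjusted p under 0.05 in a likelihood ratio test, beside 6.23% of all events (the ASNS 278-nt exon and exon 9, the PHGDH 125-nt exon, PSAT1 exons 5 and 6 and exons 2 and 3, and SHMT1 exons 3 and 4), none with 10 points of change.

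The junction reads also gave a level for each gene. In every gene the reads of the most-read event stood in for the gene, in RPM over totals of 5449695 to 6337736 such reads per library. None of the 8 genes passed an adjusted p under 0.05 with a log2 fold change of at least 1, against 0.0493% of all genes (0.414% by the adjusted p alone), none had an unadjusted p under 0.05, against 12.1% of all genes, and limma with voom weights also called 0, beside 0.0591% of all genes. Log2 fold changes ran from -0.12 to 0.13, with a median of -0.00119 beside -0.0347 over all genes.

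The mitochondrial enzyme SHMT2 stood at 191.17, 200.49 and 190.53 RPM in control and 209.38, 206.8 and 221.59 with SAM68. All SAM68 libraries were higher, by a log2 fold change of 0.13 (95% interval -0.00174 to 0.26, limma adjusted p = 0.423). The value rests on that event: it was 0.00709 with the median and 0.0113 with the sum over all SHMT2 events. Its cytosolic counterpart SHMT1 had 86.881, 82.581 and 90.998 in control and 85.204, 90.831 and 90.25 with SAM68, a change of 0.03 (interval -0.14 to 0.21) with overlapping libraries, 0.071 with the median and -0.026 with the sum over its events.

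ASNS had 239.1, 235.81 and 233.35 RPM in control and 248.2, 241.3 and 261.76 with SAM68. Again the groups did not overlap, at a log2 fold change of 0.08 (interval -0.04 to 0.21, limma adjusted p = 0.617), 0.05 with the sum and 0.12 with the median over its events. Without the SAM68 library at list position 3 it was also 0.05. GLUD1 lay lower in every SAM68 library, at 175.77, 161.11 and 169.13 against 187.55, 185.05 and 178.15 (log2 fold change -0.12, interval -0.26 to 0.02, limma adjusted p = 0.492), a change of -0.07 with the median and -0.08 with the sum over its events. Thus 3 of the 8 genes had separate groups, 2 higher and 1 lower, where 6.04% of all genes were higher and 10.8% lower without overlap.

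The serine synthesis pair and the aminotransferases overlapped between the groups. PHGDH had 96.018, 91.651 and 109.4 in control and 91.989, 90.464 and 99.421 with SAM68 (log2 fold change -0.07, interval -0.25 to 0.11). PSAT1 had 215.82, 215.28 and 180.83 in control and 207.17, 189.55 and 178.3 with SAM68 (-0.09, interval -0.24 to 0.07). With 1 library left out, PHGDH ran from -0.13 without the control library at list position 2 to 0.00106 without the control library at list position 3. PSAT1 then ran from -0.17 without the control library at list position 3 to -0.04 without the SAM68 library at list position 3. GOT1 had 78.779, 80.194 and 83.638 against 87.571, 75.784 and 78.326 (-0.01, interval -0.19 to 0.18), and the sign of its change turned with the scaling or the event used. GOT2 had 133.94, 129.36 and 112.91 against 129.7, 112.85 and 135.19 (0.01, interval -0.17 to 0.18), with 0.13 for the median and 0.08 for the sum over its events. These intervals do not reach a change of 1 on the log2 scale in any of the 8 genes.

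**Figure D3:**
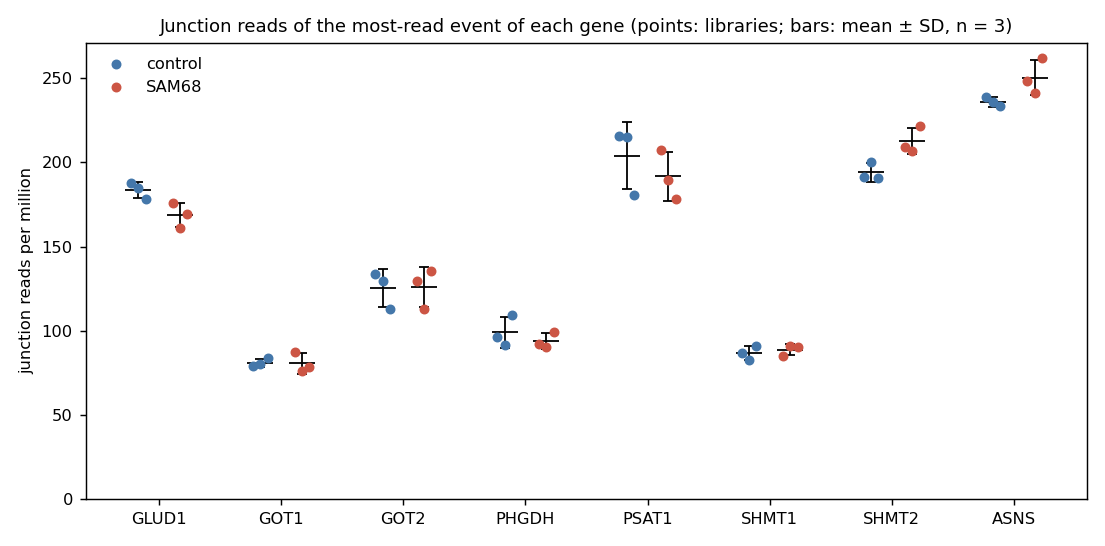
RPM (junction reads of the most-read event scaled to 1000000 per library) of each of the 8 genes, with 1 point per library (3 control in blue, 3 SAM68 in red) and the mean ± SD as a black bar. The colours lie side by side in every gene, with all SAM68 libraries higher in SHMT2 and ASNS and all lower in GLUD1; heights of different genes also depend on the length of the event.

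To compare genes with each other, reads were divided by effective length and the median taken over the SE events with a mean PSI of at least 90%. In control cells this level, in RPM per 100 nt, was 80.4 ± 2.47 for ASNS, 79.1 ± 6.72 for PSAT1, 67.9 ± 1.92 for GLUD1, 58.9 ± 1.55 for SHMT2, 44.9 ± 2.27 for GOT2, 33.3 ± 1.23 for PHGDH, 32.3 ± 1.79 for SHMT1 and 27.6 ± 0.97 for GOT1 (SD, n = 3 each). In control the libraries of ASNS and PSAT1 overlapped, as did those of PHGDH and SHMT1, and the other neighbours in this order did not. With SAM68 the neighbours that overlapped were GLUD1 and SHMT2, PHGDH and SHMT1, and SHMT1 and GOT1. The events of 1 gene differed too, from 13.5 to 42.1 in PHGDH, so the order is a description.

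**Figure D4:**
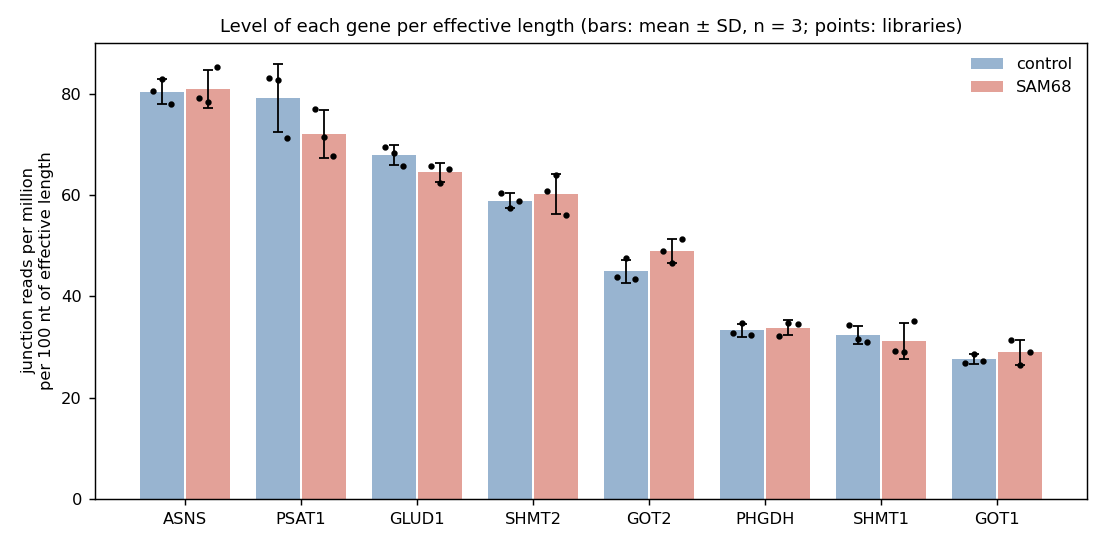
Level of each of the 8 genes in RPM (junction reads scaled to 1000000 per library) per 100 nt of effective length, as the median over its SE events with a mean PSI of at least 90%; bars give the mean ± SD of 3 libraries and points the libraries, control in blue and SAM68 in red. Levels fall from ASNS and PSAT1 near 80 in control to GOT1 at 27.6, and the 2 groups stand close together in each gene.

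Annotated copies bear on the genes unequally. GENCODE 44 names 6 pseudogenes after GLUD1, 6 after GOT2, 5 after ASNS, 4 after PSAT1 and 1 after SHMT1, and none after GOT1, PHGDH or SHMT2. Reads shared with such copies could not be told apart here, so levels of the first 5 genes are uncertain to that extent.

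SAM68 is known to bind RNA at short A- and U-rich motifs. In the 100 nt before and the 100 nt after each exon, on the strand of the transcript, the letters TAAA or TTAA occurred at least once for 70.3% of the 37 SE exons of the 8 genes and for 71.0% of the 38685 different SE exons of the whole series, with a median of 2 in both. The ASNS 278-nt exon had 1 such match, ASNS exon 9 had 6, PSAT1 exon 8 had 3, SHMT1 exons 8 and 9 had 2 each, and the PHGDH 125-nt exon and GOT1 exon 6 had 0. The matches are a description of the sequence and not binding sites.

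The wider pathway was listed as 77 further genes of glutamine, proline, serine, one-carbon, nucleotide and asparagine metabolism, of amino acid carriers and of the amino acid response, of which 59 had tested events. None of their 455 events was called, against 0.0919% of all events, and 24 (5.29%) had an unadjusted p under 0.05, against 5.95% of all events. The smallest adjusted p was 0.0537. By junction reads none of the 59 genes was called, 26 lay higher and 33 lower with SAM68 (4364 and 5783 of all genes), and 9 had an unadjusted p under 0.05 (12.1% of all genes). Their median log2 fold change was -0.0354, close to the -0.0347 of all genes.

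None of the 3 leading rises passed the adjusted threshold. The mitochondrial glutamate carrier SLC25A22 had 15.342, 14.957 and 18.902 RPM in control and 30.768, 20.001 and 22.746 with SAM68, a log2 fold change of 0.55 (interval 0.18 to 0.92, limma adjusted p = 0.181). With the median over its events the change was 0.00988. DDIT3, a transcription factor of the stress response, had a change of 0.25 (limma adjusted p = 0.328), with overlapping libraries. ADSL, an enzyme of purine synthesis, had 126.36 to 134.99 in control and 145.83 to 158.89 with SAM68, a change of 0.22 (limma adjusted p = 0.199).

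Among the falls, PPAT, which starts purine synthesis with glutamine as nitrogen donor, had 13.791, 17.184 and 18.568 RPM in control and 12.781, 11.193 and 8.0711 with SAM68, without overlap (log2 fold change -0.62, interval -1.06 to -0.18, limma adjusted p = 0.208). CBS, which joins serine and homocysteine, had 24.306, 3.0232 and 1.1709 in control and 0.94671, 12.661 and 0.73374 with SAM68. Both groups held 1 high library. Its log2 fold change of -0.88 (interval -2.35 to 0.59) ran from -1.98 without the SAM68 library at list position 2 to 0.24 without the control library at list position 1, and was -0.27 without the SAM68 library at list position 3, -0.39 without the SAM68 library at list position 1, -1.71 without the control library at list position 3, -0.42 with a pseudocount of 5 and 1.14 with the sum over its events, so no direction is given.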

How the data were processed

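RNA from 3 control and 3 SAM68 libraries was sequenced by the authors on a NovaSeq as paired reads, filtered and trimmed at the start, checked with fastp 0.20.0 and aligned with HISAT2 2.1.0 to GRCh38 without alternate contigs. The versions come from the submitters' processing notes, and the version of rMATS is not given in the sources used here. The deposited tables hold raw inclusion and skipping junction counts and, as a fraction, inclusion levels, as lists of 3 libraries per group. Columns with the p-value and FDR from the authors' own test, and a score that the authors computed by subtracting the group means of inclusion levels, were not used. Column names give only list numbers. Lists were assigned to groups by matching the inclusion levels of the PKM event to those printed in a plot of the paper that names the groups, and neither labels nor file headers give this assignment. The lists carry no replicate numbers, so a library is named by its list position.

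PSI was the inclusion count over its effective length as a share of both forms. Of 78336 listed events, 114 of the A3SS table, whose digits a spreadsheet had regrouped, were left out, none of them of the 8 genes; of the 65 events of these genes, 7 of PHGDH and SHMT2 had under 10 reads. Each event was tested with a quasi-binomial model, dispersion moderated with squeezeVar of limma (3.58.1, R 4.3.3), Benjamini-Hochberg within each type. Genes were tested with limma (trend) on log2(rpm + 0.5) of the most-read event, with a minimum mean of 10 reads; fold changes are on that scale and understate changes of low genes. Scripts were tested on simulated data. Exons were placed in GENCODE 44 and hg38, where 99.9% of tested SE exons followed an AG. Pathway genes were matched by gene identifier, and 1 gene is not reported here.

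Named events were, per gene, up to 3 most-read events with mean PSI between 5% and 95%, up to 3 with the largest change and at least 20 reads, and the most-read event; named pathway genes were the 3 largest rises and falls. The members and lists were chosen with earlier results of these data known. The paper's methods call the 3 libraries of a group biological replicates, and the labels say nothing of separate cultures. Gene p-values rest on the spread between these libraries, and event p-values on a spread shared by all events of a type.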

Additional observations from a re-analysis of the deposited data

How the results depend on the processing

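No event of the 8 genes was called under any of the 14 alternatives, and none of the 8 genes under any of the 13 run for genes. For the other pathway genes the count of called events was 4 when group counts were pooled for a likelihood ratio test (SLC3A2, MTHFD1L, ASL and IDH3G, named after their values were seen) and 0 to 1 when 1 library was left out, the call being MTHFD1L at 15.0 points (adjusted p = 0.025) without control library 1, against 11.8 points (adjusted p = 0.0537) with all. Of 406 changes of PSI 8 turned sign, all on leaving out 1 library: PSAT1 exons 6 and 7 (-2.07 to 0.0316 points), the SHMT1 139-nt exon (-1.15 to 0.928), SHMT2 exon 7 (-0.31 to 0.219) and ASNS exons 5 and 6 (-0.987 to 3.08). Of 181 log2 fold changes 14 turned sign: GOT1 (0.02 with median of ratios scaling, 0.067 with the median and 0.058 with the sum over events), SHMT1 (-0.026 with the sum) and CBS (1.14 with the sum), and, leaving out 1 library, GOT1 (-0.069 to 0.035), GOT2 (-0.068 to 0.082), PHGDH (-0.13 to 0.00106), SHMT1 (-0.00308 to 0.067) and CBS (-1.98 to 0.24). The cause was not tested. KHDRBS1 kept its call under all 13. Over all events 61 were called, but 3 when limma was run on logit-transformed PSI, 2 with unmoderated dispersion and 1351 on pooled counts. No named event has the same pair of forms as another event of its type; events that share 1 exon or site (in SHMT2, PSAT1 and SHMT1) differ in the other form and were not summed. No paired analysis was possible because the lists carry no replicate numbers, and nothing ties a position in one list to the same position in the other. Intervals wider than 10 points were left at 15.0 to 516 reads per library, in SHMT1, SHMT2 and PHGDH.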
